A study of Ovis aries with 60 samples.

Results

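The region described here is a stretch of sheep chromosome 12 from position 16000000 to position 19000000 of the Oar_rambouillet_v1.0 assembly. It was chosen by the measured diet differences themselves, because several of its cytosines had a methylation difference between the treatment and control groups in F0 that ran the other way in F2. Its members are all cytosines listed in that interval. For the CG context these were 517 of the 313527 listed in F0, 503 of the 294661 listed in F1 and 209 of the 122453 listed in F2. In the CHH context 17472, 17359 and 14034 cytosines of the block were listed in F0, F1 and F2, and in the CHG context 4223, 4146 and 3128. The block held 669 CG positions listed in at least 1 generation, and 136 of them were listed in all 3. Since the diet contrast of all generations was used to choose the block, the diet differences below are descriptions and carry no test.

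Sperm DNA was profiled by whole-genome bisulfite sequencing in 10 F0 rams, 10 F1 pools and 20 F2 rams. The 5 F0 rams of the treatment group received a coated methionine supplement on top of the control diet from weaning until puberty, and the 5 rams of the control group received the control diet alone. Treated and control rams were twins, but the labels do not say which ram was paired with which. F0 rams were mated to untreated Polypay ewes, 1 F1 ram per F0 sire was mated to further untreated ewes, and all F1 and F2 animals ate control diets. Each F1 sample was a pool that carries the number of 1 F0 sire, and the rams that went into it were not named, so that a pool gives a mean over animals. Each F0 sire had 2 F2 grandsons, which were sons of the same F1 ram and are called brothers here. F2 rams are named by their labels, which give the ram, its F0 sire, and T for treatment or C for control. In F2 the words treatment and control thus refer to the grandsire's diet, and the unit that varies independently is the family. Sperm RNA was sequenced for the same 20 F2 rams. Over the block, the median coverage of CG cytosines per sample was 19 to 35 reads in F0, 17 to 34 in F1 and 12 to 37 in F2, and no files of different samples were identical.

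In mammals DNA methylation sits mostly at CG dinucleotides, where the maintenance methyltransferase DNMT1 copies it to the new strand after replication, while cytosines of the CHH and CHG contexts are nearly always unmethylated. Sperm DNA is highly methylated outside gene control regions, and most marks are erased and rebuilt in primordial germ cells and in the early embryo. Bisulfite turns an unmethylated cytosine into uracil, which is read as thymine. A chromosome that carries thymine at the position in its own sequence gives the same read, so that the level of a cytosine, the share of its reads that still show cytosine, reflects both methylation and the base present on each of the ram's parental chromosomes.

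In the block as a whole, CG cytosines had a lower mean level than over all chromosomes, and the means of the groups differed by less than their SDs. The mean level of the listed CG cytosines was 64.4% ± 2.01 in the F0 treatment group and 65.6% ± 2.27 in the F0 control group (SD, n = 5 each). It was 64.0% ± 1.31 against 64.8% ± 3.16 in F1 (n = 5 each) and 64.4% ± 3.18 against 65.4% ± 3.03 in F2 (n = 10 each). Over all listed CG cytosines the F0, F1 and F2 means were 74.2%, 73.8% and 70.7%. The cytosines of the block also varied more among samples. Their median SD was 9.77 points in F0, against 7.65 over all CG cytosines, and 12.7 points in F2, against 10.8. In F2, 25.4% of the block's CG cytosines had an SD of 20 points or more, compared with 16.1% of all listed. An SD over samples of both diets contains the diet differences by which the block was chosen, so these values are descriptions. CHH and CHG cytosines of the block were close to unmethylated, with a median mean level of 0.204% and 0.233% in F0.

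In F0, most differentially methylated CG cytosines (DMCs) of the block were less methylated in the treatment group. A cytosine was called a DMC when the methylated shares of the summed reads were 20 points or more apart and the likelihood-ratio test of these reads gave an adjusted p of at most 0.01. By this rule 25 of the 517 CG cytosines were DMCs, beside 1.82% of all CG cytosines listed in F0. Of the 25, 8 were higher (0.77% of all) and 17 lower (1.05% of all) in the treatment group, with absolute differences between 20.4 and 38.6 points. The densest stretch of the block held 11 of them, between 18000000 and 18500000. No DMC of the 25 had groups without overlap, beside 2.22% of all F0 CG DMCs. The F0 DMC with the largest difference, at 17201999 on the minus strand, fell by 38.6 points in the treatment group. There the control rams 4 and 6 were at 100% each and rams 10, 12 and 24 at 52.2%, 42.9% and 52.2%. The treated rams 3, 5, 9, 11 and 23 were at 52.9%, 35.3%, 26.9%, 37.5% and 25%. Rams 4 and 6 were highest, and the remaining control rams lay within or close to the treated range. Between rams with consecutive numbers (3 and 4, 5 and 6, 9 and 10, 11 and 12, 23 and 24), which the labels do not name as twins, the treated ram was lower in all 5 pairs.

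At the other F0 extremes rams 4 and 6 also lay at one end of the control group. At 18957150 (minus strand, 38.4 points lower in the treatment group) rams 4 and 6 were at 97.4% and 82.8%, rams 10 and 12 at 0%, and ram 24 at 37.5%, while the treated rams lay between 0% and 52.6%. At 18984040 (plus strand, 37.8 points higher) rams 4, 6 and 10 were at 37%, 39.1% and 41.7%, ram 12 at 61.5% and ram 24 at 100%, while the treated rams lay between 57.9% and 100%. This last position was also the listed CG cytosine nearest to the end of the block on its inner side, with group means of 88.8% ± 17.7 and 55.9% ± 26.5. The nearest listed one beyond the end, at 19011491, had means of 17.5% ± 24.7 and 27.2% ± 25.2. At the start of the block, 16007725 inside had 77.2% ± 20.3 and 60.6% ± 36.8, and 15981333 outside had 89.4% ± 6.61 and 90.5% ± 6.22 (treatment, control; SD, n = 5 each). The ends of the block are round positions and do not mark the limits of the diet differences, since the nearest F0 DMC beyond the end lay 20.1 kb away and the nearest before the start 83.1 kb away.

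F1 pools repeated the F0 directions with smaller spread. Of the 503 CG cytosines 17 were DMCs, beside 1% of all listed in F1, with 4 higher (0.458% of all) and 13 lower (0.542% of all) in the treatment group. Of the 25 F0 DMCs 24 were listed in F1, and 23 of those 24 differed in the same direction there. DMC calls of F0 and F1 shared 14 cytosines (56% of the F0 calls and 82.4% of the F1 calls), all in the same direction. Over all chromosomes 855 of 861 shared calls had the same direction. In 4 of the 17 the groups did not overlap, beside 7.8% of all F1 CG DMCs. The largest of these was 17827069 on the plus strand, where treatment pools 3, 5, 9, 11 and 23 were at 43.5%, 6.67%, 36.7%, 27.8% and 55.6% and control pools 4, 6, 10, 12 and 24 at 80.6%, 65.4%, 77.8%, 58.8% and 85%. At 17863318 on the minus strand the treatment pools lay between 30.8% and 38.9% and the control pools between 62.5% and 78.3%, a tight separation (34.8% ± 3.47 against 70.4% ± 6.64, SD, n = 5 each). In the F0 rams the same cytosine had overlapping groups, from 3.03% in ram 5 to 57.9% in ram 3 in the treatment group and from 40% in ram 24 to 93% in ram 4 in the control group. At 17878395 on the plus strand the F1 difference was -34.5 points, and the F0 rams were spread from 0% (rams 5 and 11, and control rams 6 and 12) to 97.1% (ram 4).

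In F2 most DMCs that were also listed in F0 or F1 had differed in the other direction there. Of the 209 listed CG cytosines 26 were DMCs, beside 2.19% of all listed in F2, with 13 higher (1.1% of all) and 13 lower (1.09% of all) in the treatment group. None had groups without overlap, beside 0.0373% of all F2 CG DMCs, and the absolute differences ran from 20.1 to 42.3 points. On chromosome 12 outside the block 3.81% of the CG cytosines listed in F2 were DMCs, which is also above the 2.19% of all listed. The same share was 1.604% in F1, above that of all listed, and 1.49% in F0, below it. Of the 26, 19 were listed in F1, and all 19 differed in the opposite direction there. In F0 19 were listed, and 16 differed in the opposite direction. DMC calls of F0 and F2 shared 7 cytosines (28% of the F0 and 26.9% of the F2 calls), all of opposite direction. Only 8 of the 25 F0 DMCs were listed in F2, and all 8 differed in the opposite direction there. The other F0 DMCs have no F2 value. Over all chromosomes 252 CG cytosines were DMCs of F0 and F2 with the same direction and 69 with opposite directions. F1 and F2 calls shared 5 cytosines, again all opposite, whereas over all chromosomes 205 of 228 kept direction. Of the 17 F1 DMCs only 6 were listed in F2, and all 6 differed in the opposite direction there. These counts follow from how the block was chosen.

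**Figure D1:**
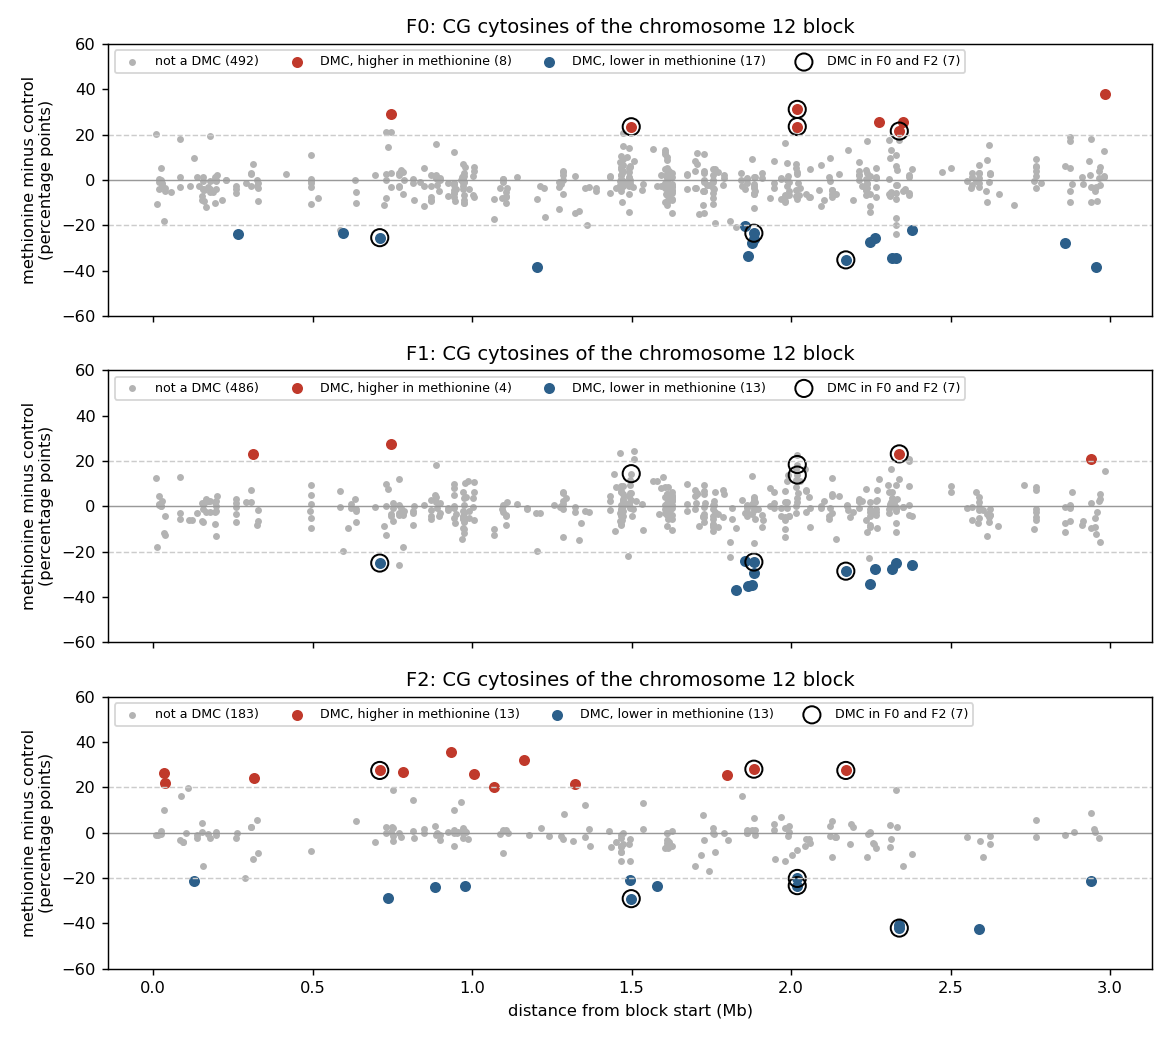
Difference in methylation between the treatment and control groups (percentage points, vertical axis) at each listed CG cytosine of the block against its distance from the block start (Mb) in F0, F1 and F2. Grey points are not DMCs, red and blue points are DMCs higher and lower in the treatment group, and rings mark the 7 DMCs of F0 and F2, which lie on opposite sides of 0 in F0 and F2 and on the F0 side in F1.

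Among the 7 cytosines called in F0 and F2, 4 were DMCs in F1 too. At 18171451 on the plus strand the F0 treated rams 3, 5, 9, 11 and 23 were at 52.7%, 38.3%, 0%, 30% and 52%, and control rams 4, 6, 10, 12 and 24 at 98.6%, 90.1%, 51%, 44.4% and 52.9%. Ram 9 stood at the bottom, rams 4 and 6 near the top, and most of the others near the middle, and the treated ram was the lower one in all 5 pairs of consecutive numbers. In F1 the treatment pools 3, 5, 9, 11 and 23 were at 49.1%, 41.9%, 24.6%, 41.7% and 56.9%, and the control pools 4, 6, 10, 12 and 24 at 67.8%, 88.6%, 72.9%, 56.5% and 65.7%. In F2 the treatment grandsons ran from 22.5% to 100% with a median of 89.7%, and the control grandsons from 0% to 95.2% with a median of 47.1%. Treatment minus control was -35.2 points in F0, -28.6 in F1, and 27.5 among the grandsons.

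At 18339124 on the plus strand the same animals were at the opposite ends of the scale. Control rams 4 and 6 were at 0%, rams 10, 12 and 24 at 26.9%, 30.8% and 50%, treated ram 9 at 80%, and treated rams 3, 5, 11 and 23 at 32.1%, 41.4%, 34.3% and 35%. Among the pairs of consecutive numbers, treated ram 23 was below control ram 24, against the group difference. In F2, 7 of the 10 treatment grandsons were at 0%, and the other 3 between 21.4% and 35.7%. Control grandsons ramF2_453.4C and ramF2_475.10C were at 100%, grandsons ramF2_350.6C and ramF2_485.6C at 0%, and the others between 42.9% and 61.1%. The difference thus changed from 21.6 points in F0 and 23.2 in F1 to -42.0 in F2. Its neighbour at 18339109 had F2 levels of 0% to 33.3% (median 0%) in the treatment group and of 0% to 100% (median 50%) in the control group, a difference of -40.5 points, and was 17.6 points higher in the treatment group in F0 without being a DMC.

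At 17883168 on the minus strand the difference went from -23.5 in F0 and -24.6 in F1 to 28.1 points in F2. F0 treated rams lay between 0% and 51.2%, and of the control rams 4 and 24 were at 81.8% and 73.5% and the other 3 between 28.6% and 37.9%. In F2 the treatment grandsons had a median of 73.5% (29.4% to 88.9%) and the control grandsons one of 48.1%, with ramF2_453.4C and ramF2_475.10C at 0% and ramF2_485.6C at 91.3%. The minus-strand cytosine at 16710118 lies in an intron of BRINP3 in the annotation given with the study. BRINP3 codes for a neural protein that restrains the cell cycle. At this position F0 treated rams 3, 9 and 23 were at 0% and rams 5 and 11 at 37.9% and 35.2%, control rams 10 and 24 were at 0%, and control rams 4, 6 and 12 were at 68%, 82.4% and 41.2%. The consecutive rams 9 and 10 thus did not differ, nor did rams 23 and 24. In F2 medians were 73.9% for the treatment group (0% to 96.3%) and 38.8% for the control group (0% to 83.3%), and the differences over F0, F1 and F2 were -25.4, -25 and 27.5 points.

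The remaining 3 were higher in the treatment group in F0 and lower in F2, and missed the rule in F1. At 18019138 on the minus strand the difference went from 31.2 points in F0 and 18.5 in F1 to -23.3 in F2. Control rams 4 and 6 were at 0% and 2.63% there and ram 9 at 80%, with all other F0 rams between 34.8% and 53.3%, and the treated ram was the higher one in all 5 pairs of consecutive numbers. Its close neighbour at 18019217 on the same strand differed by 23.6, 13.8 and -20.1 points and was named after its values were seen. At 17498647 on the plus strand the differences were 23.5, 14.4 and -29.1 points. Rams 4 and 6 were at 0% and the other F0 rams between 14.3% and 47.4%, and in F2 8 of the 10 treatment grandsons were at 0%, whereas control grandsons ramF2_453.4C and ramF2_475.10C were at 87.5% and 66.7%. Against the F0 group difference, treated ram 11 (26.9%) was below control ram 12 (41.7%), and treated ram 23 (14.3%) below control ram 24 (19%).

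The CG DMC of F2 with the largest difference was not among the 7. At 18587746 on the plus strand the F2 treatment grandsons ran from 0% to 97.6% with a median of 46.9% and the control grandsons from 0% to 100% with a median of 91%, a difference of -42.3 points. In F0 and F1 the groups differed by -1.53 and 3.94 points, with rams from 0% (ram 6) to 100% (ram 24). Here grandson ramF2_485.6C was at 0% and its brother ramF2_350.6C at 91.4%, so that brothers could lie at opposite ends.

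The direction of the 7 held when any single sire was left out, in each generation, but its size rested on few animals. Since the 7 were chosen for differences of 20 points or more in F0 and F2 in these rams, a kept direction lends no support. With sire 4 left out the median absolute difference of the 7 went from 23.6 to 18.3 points in F0 and, without its grandsons, from 27.5 to 19.95 in F2. Other omissions raised this median, to 38.2 points in F2 without the grandsons of sire 6 and to 30.2 in F0 without ram 24. In F1 the median went from 23.2 to 14.1 points without the pool of sire 9, to 14.9 without that of sire 6 and to 17.5 without that of sire 4. At 16710118 the difference was -6.33 points without ram 6 in F0 and -14.9 without its pool in F1. In F0 it was -12.1 at 17883168 without ram 4 and 13.5 at 18339124 without ram 9. In F1 it was 8.24 at 17498647 without the pool of sire 6, and 7.67 at 18019217 and 14.1 at 18339124 without that of sire 9. Leaving out sire 4 with its grandsons reduced the cytosines called in F0 and F2 from 7 to 1, and leaving out sire 6 with its grandsons reduced them to 4. Without control rams ramF2_453.4C and ramF2_475.10C in F2, an alternative chosen after seeing the data, the F2 difference at 18171451 was 15.4 points instead of 27.5 and at 18339124 -27.9 instead of -42.0. At 16710118 it was 15.2, at 17498647 -17.6, at 17883168 14.5, at 18019138 -11.1 and at 18019217 -9.70. In the same alternative 13 instead of 26 CG cytosines were F2 DMCs and 1 instead of 7 was called in F0 and F2. A test that takes the ram or pool as the unit (limma on levels, over all CG cytosines) called 0 cytosines of the block in each generation. It is given as a description too, and its F2 fit takes brothers as independent. Counting those 20 points or more apart whose unadjusted p was under 0.05, it passed 8 cytosines of the F0 block (beside 0.623% of all listed), 16 of F1 (0.867%) and 13 of F2 (1.07%), and 13 in F0 with consecutive ram numbers as pairs (1.03%).

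For the 7 cytosines a mean level per sample was formed on one direction, by taking 100 minus the level where the treatment group was higher in F0. This oriented mean was 44.4% ± 10.9 in the F0 treatment group and 68.0% ± 19.4 in the control group (SD, n = 5 each), and 78.6% ± 14.7 against 50.5% ± 28.8 in F2 (n = 10 each), as the choice of the cytosines requires. Ram 4 had 92.6% and ram 6 had 85.5%, while control rams 10, 12 and 24 had 52.4%, 55.5% and 54.2%, close to treated rams 3, 5, 11 and 23 at 51.6%, 45.9%, 50.2% and 49.4%. Treated ram 9 had 25.2%. The F0 rams thus fell into a large group near the middle, with 2 control rams above it and 1 treated ram below.

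The families kept this order to the pools in part. The pools of sires 6, 9, 12, 24, 3, 5, 11 and 23 stayed near their sire, with 82.6% for sire 6, 30.6% for sire 9, 62.7% for sire 12 and 50.5% for sire 24. The pool of sire 4 had 69.8%, below its sire, and that of sire 10 had 69.2%, above its sire. In F2 the grandsons of sire 6 had 91.8% and 94.7%, close to their grandsire. The grandsons of sire 4 had 48.6% and 5.71%, both far below the 92.6% of their grandsire, and those of sire 10 had 55.9% and 8.78%. In the treatment group all grandsons lay above their grandsire, with family means between 65.1% (sire 9) and 90.8% (sire 3). The change of direction between F0 and F2 was therefore made up of a rise in all 5 treatment families and a fall in the mean of the control families of sires 4 and 10, while the control families of sires 12 and 24 stayed near the middle (52.8% and 47.3%) and that of sire 6 stayed high (93.2%). The choice of the cytosines fixed this change of the group difference in advance, so the family values are descriptions.

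**Figure D2:**
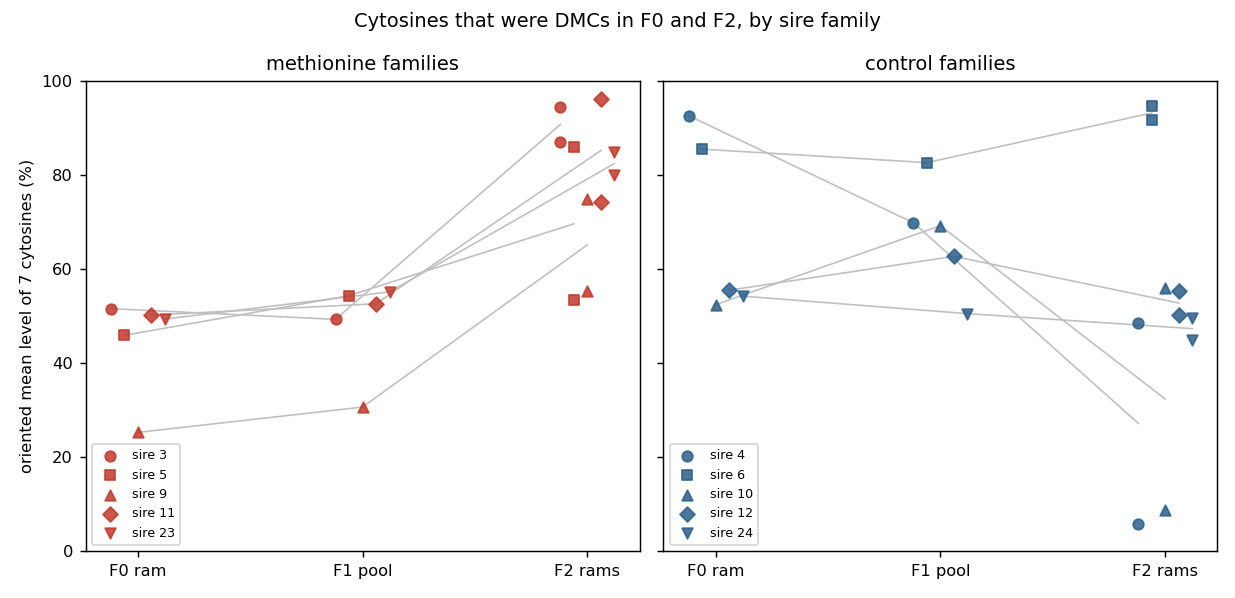
Oriented mean level (percent, vertical axis) of the 7 cytosines that were DMCs in F0 and F2, for each F0 ram, F1 pool and F2 ram, with treatment families on the left and control families on the right. Symbols mark the sire and grey lines join sire, pool and the mean of the 2 grandsons, and the grandsons ramF2_453.4C (sire 4) and ramF2_475.10C (sire 10) sit at the bottom of the control panel at 5.71% and 8.78%.

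Some cytosines outside the CG context were DMCs as well. Of the CHH cytosines of the block 1 was a DMC in F0 (0.00572%, beside 0.0145% of all listed), 2 in F1 (0.0115%, beside 0.00535%) and 10 in F2 (0.0713%, beside 0.0266%). Of its CHG cytosines 0 were DMCs in F0 (beside 0.0142% of all), 1 in F1 (0.0241%, beside 0.00605%) and 1 in F2 (0.0320%, beside 0.0306%). The F0 CHH share was thus below that of all listed, and the F2 CHG share near it. On chromosome 12 outside the block the F2 shares were 0.0436% for CHH and 0.0588% for CHG. No CHH or CHG cytosine was called in 2 generations. The F0 CHH DMC was listed in neither F1 nor F2, and the F1 CHH and CHG DMCs were not listed in F2. They could therefore not be called there. Of the F2 CHH DMCs 7 were listed in F0, where 6 differed in the opposite direction, and 4 in F1, where all 4 did. At the 11 non-CG DMCs of F2, levels reached values that are rare for these contexts, where 0.185% of the CHH and 0.32% of the CHG cytosines of the block had any F2 ram over 50%. A group difference of 20 points requires unusually high levels in some rams, so this follows from the calling rule. At 18877443, a CHH cytosine on the minus strand with the largest F2 difference of any context (-47.6 points), control grandsons ramF2_453.4C and ramF2_475.10C were at 100%, ramF2_350.6C and ramF2_485.6C at 0%, and the other control grandsons between 35.9% and 95%. Of the treatment grandsons 8 were at 0% and the other 2 at 55.6% and 40.9%. The CHG cytosine at 17225353 (minus strand, -32.5 points) had 100% and 95% in ramF2_453.4C and ramF2_475.10C, 0% in ramF2_350.6C and ramF2_485.6C, and 0% in 7 treatment grandsons, whereas treatment grandson ramF2_372.9T was at 86.4%. At other non-CG DMCs of F2 different rams stood apart. At the CHH cytosine 18293685 ramF2_453.4C and ramF2_475.10C were at 0% and ramF2_426.11T was highest at 95%, and at 18730813 ramF2_323.23T was highest at 75%. In the F0 rams the CHG cytosine 17225353 was at 0% in rams 4 and 6 and between 28.6% and 60% in all others.

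Levels at some of these non-CG cytosines were correlated with those of the CG cytosine 18171451, which had the largest smaller difference of F0 and F2 and serves as the reference cytosine below. Over the 20 F2 rams Pearson's r with it was -0.92 for the CHG DMC 17225353, -0.90 for CHH 18571656, -0.88 for CHH 17201423, -0.87 for CHH 18877443 and 0.82 for CHH 18356320, and between -0.77 and 0.51 for the other 6. These correlations are descriptions, since all 20 rams share the diet contrast that the cytosines were called on.

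Along the block, many CG cytosines varied widely among rams. Cytosines with an SD of at least 20 points in both F0 and F2 are called variable here. Such SDs contain the diet differences by which the block was chosen. Of the 147 CG cytosines listed in F0 and F2, 27 were variable (18.4%, compared with 9.56% of the 82155 over all chromosomes). In F2, 22% of their 540 values were at 10% or less, 37.2% between 30% and 70%, and 18.9% at 90% or more, with 5.74% between 10% and 30% and 16.1% between 70% and 90%. F0 rams had 13.7%, 45.2% and 15.9% of 270 values in the same first 3 bands, with 6.67% between 10% and 30% and 18.5% between 70% and 90%. In the F1 pools, at the 26 of them that were listed, 4.62% of the values were at 10% or less and 6.15% at 90% or more, and 55% lay between 30% and 70%. Values of single rams were sparse only between 10% and 30%, and the pools lay more often in the middle than single rams. Differences in base sequence between chromosomes were not tested. No CG position of the block was listed on both strands in any generation (2886 positions over all chromosomes in F0, 2881 in F1 and 7314 in F2), so that the strands could not be compared.

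**Figure D3:**
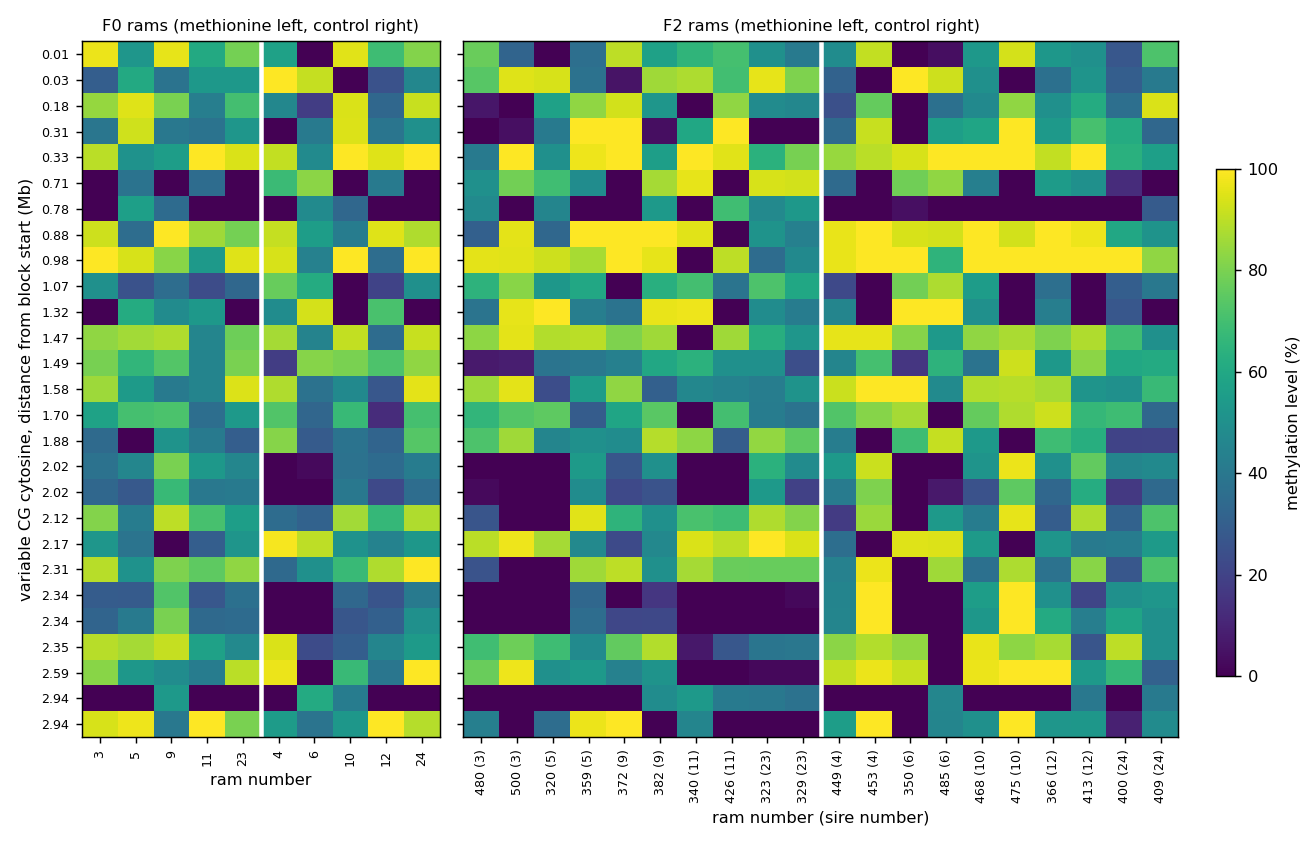
Methylation level (percent, colour scale) of the 27 variable CG cytosines of the block, in order of distance from the block start (Mb, vertical axis), in the 10 F0 rams and the 20 F2 rams (horizontal axis, ram number, with the sire number in brackets for F2). Columns for ramF2_453.4C and ramF2_475.10C look alike over most of the block, as do those for ramF2_500.3T and ramF2_350.6C, although these rams come from different families.

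Correlations between variable cytosines were compared by distance. At 10 to 100 kb (14 pairs) the median absolute r of the block was 0.40 in F2, as elsewhere (0.40), and 0.23 in F0, against 0.50 elsewhere. Within the block, the median absolute r between 2 variable cytosines in F2 was 0.44 at 100 to 500 kb (78 pairs), 0.39 at 0.5 to 1.5 Mb (166 pairs) and 0.43 at 1.5 to 3 Mb (90 pairs). Elsewhere in the genome the same medians were 0.32, 0.30 and 0.28. Within diet groups the F2 values were 0.41, 0.33 and 0.37 in the block and 0.33, 0.30 and 0.28 elsewhere. A median absolute r lies above 0 even for unrelated levels, and brothers remain within these groups. How much of the correlation goes with diet was not tested. In F0 the medians of the block were 0.39, 0.30 and 0.33, below the 0.41, 0.40 and 0.38 found elsewhere with only 10 rams. Signs were compared only for pairs strongly correlated in both generations. Of the pairs of the block with an absolute r of at least 0.5 in F0 and in F2, 20 of 20, 24 of 24 and 16 of 16 had the same sign in both at these distances, beside 98.7%, 98.4% and 97.5% elsewhere. Pairs share cytosines and rams and are not independent.

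For 21 of the 26 other variable cytosines the sign of r with the reference cytosine was the same in F0 and F2. Of the 26, 9 had an absolute r of at least 0.7 with it in F2, and they spread from 16034646 to 18939818, most of the length of the block. All 9 had the same sign of r in F0, and all 9 had diet differences of opposite direction in F0 and F2. Over all 27 variable cytosines 21 had opposite diet directions (77.8%), compared with 42.6% of the 7856 variable cytosines of the genome. The reference cytosine was chosen for its reversal, and several of the 9 are among the 7 called in F0 and F2. Together with the choice of the block this largely fixed these counts in advance, so they are descriptions. Variable cytosines of the same chromosome beyond the block were also correlated with the reference cytosine. The median absolute r in F2 was 0.57 in the block, 0.54 for the 9 cytosines in the 3 Mb before it, 0.47 for the 16 in the 3 Mb after it and 0.26 for the 210 on the rest of the chromosome. Within diet groups these F2 medians were 0.50, 0.63, 0.40 and 0.23, so that the cytosines before the block then ranked above those in it. In F0 they were 0.31, 0.53, 0.47 and 0.23, with the block below both flanks. Outside the block 10 cytosines had an absolute r of at least 0.7 in F2, and the farthest upstream lay 6.90 Mb from the reference cytosine. Opposite diet directions were found in 5 of the 9 before the block, 9 of the 16 after it and 108 of the 210. Strong reversals were not confined to the block. At -6.21 Mb from the reference cytosine a cytosine differed by -33.3 points in F0 and 30.6 in F2. The cytosine at -5.26 Mb differed by 39.1 and -23.6 points, and that at 4.76 Mb by 22.7 and -43.0.

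**Figure D4:**
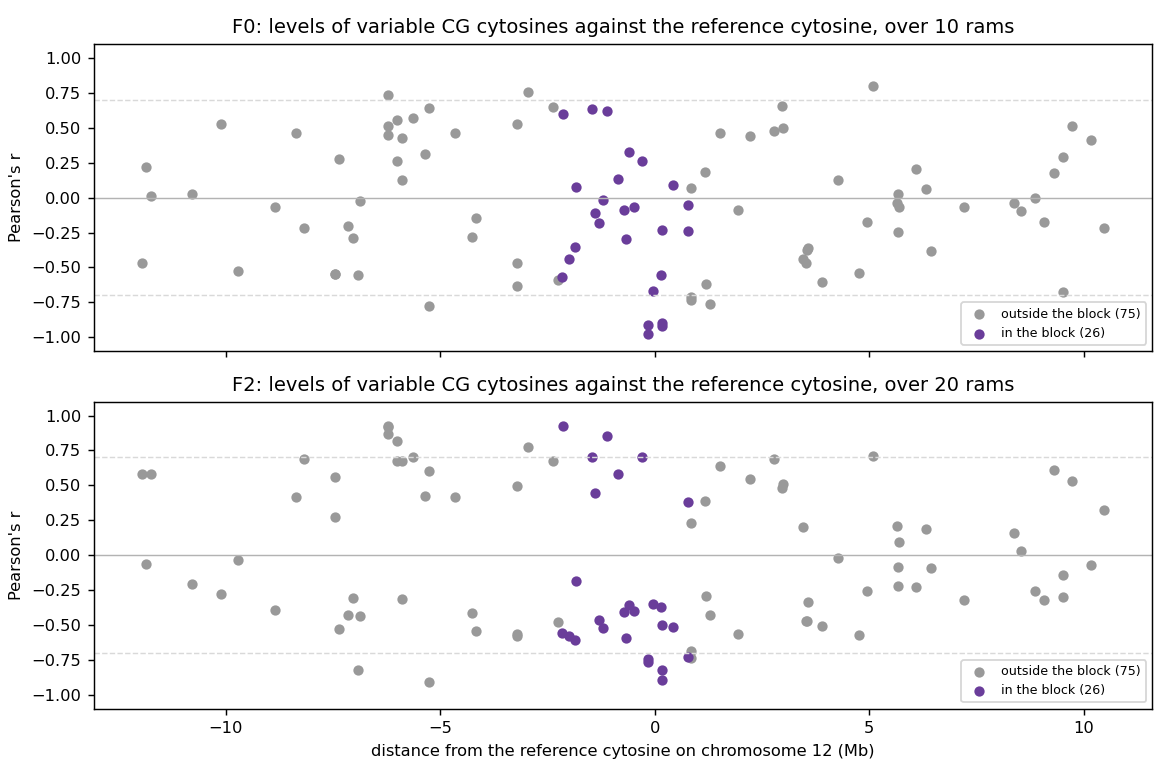
Pearson's r (vertical axis) between the level of each variable CG cytosine and that of the reference cytosine, against the distance between them on chromosome 12 (Mb, horizontal axis), over 10 F0 rams (top) and 20 F2 rams (bottom). Purple points lie in the block and grey points outside it, dashed lines mark an absolute r of 0.7, and in F2 correlated cytosines extend several Mb to the left of the block.

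Likeness of brothers in the block differed between families. In the oriented mean, brothers were 2.90 to 7.52 points apart in 5 of the 10 families (sires 6, 24, 23, 12 and 3) and 19.5 to 47.1 points in the other 5. Over its variable cytosines the mean absolute difference between 2 brothers in F2 had a median of 29.6 points over the 10 families and ran from 7.89 (ramF2_323.23T and ramF2_329.23T, sire 23) to 36.7 (ramF2_320.5T and ramF2_359.5T, sire 5). Pairs of the same diet from different families had a median of 31.4 points (4.56 to 61.0, 80 pairs) and pairs of different diet one of 33.5 points (5.02 to 63.4, 100 pairs). Over the variable cytosines of all chromosomes brothers were closer, with a median of 27.4 points against 33.1 and 32.9, and their range of 25.1 to 29.3 overlapped the low end of that of the other pairs, 28.4 to 35.8. Means over the few variable cytosines of a single region spread more widely, for every kind of pair, than means over all chromosomes. The overlap of brothers with other pairs was not compared with that in other regions of this size. F0 rams with consecutive numbers showed the same contrast. Over all chromosomes their 5 pairs differed by 22.9 to 25.4 points, below the 27.3 to 36.8 of the other pairs, but in the block by 9.38 (23 and 24), 10.4 (11 and 12), 25.3 (9 and 10), 29.9 (3 and 4) and 36.6 points (5 and 6), all within the 9.30 to 49.2 points of the other pairs.

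The closest pairs in the block came from different families. Control grandsons ramF2_453.4C (sire 4) and ramF2_475.10C (sire 10) differed by 4.56 points on average over the 27 variable cytosines, and by 35.0 points over the 7856 of all chromosomes. At the 11 non-CG DMCs of F2 they differed by 2.82 points on average and by at most 10.5. Treatment grandson ramF2_500.3T (sire 3) and control grandson ramF2_350.6C (sire 6) differed by 5.02 points in the block, by 31.8 over all chromosomes and by 2.54 at the non-CG DMCs. Their largest differences were 32.3 points at a variable cytosine of the block and 22.3 at a non-CG DMC. These pairs were named after their values were seen. A pair this close was not particular to the block. In windows of 3 Mb on chromosome 12 the lowest difference of any 2 F2 rams was 4.56 points in the block. It was 1.01 between 22 and 25 Mb, 0 between 31 and 34 Mb, 4.11 between 34 and 37 Mb and 4.91 between 37 and 40 Mb. Between 10 and 13 Mb it was 12.7. The likeness of ramF2_453.4C and ramF2_475.10C extended beyond the block. In windows of 3 Mb along chromosome 12 their mean difference was 14.9 points between 10 and 13 Mb (19 variable cytosines), 3.48 between 13 and 16 Mb (9), 2.72 between 19 and 22 Mb (16), 1.65 between 22 and 25 Mb (12) and 9.52 between 25 and 28 Mb (9), with medians over all pairs of F2 rams between 30.3 and 34.02 points. The likeness of ramF2_500.3T and ramF2_350.6C was narrower around the block, with 31.9 points before it and 11.8 after it. Farther along the chromosome they differed by 14.3 points between 22 and 25 Mb and by 0.725 between 31 and 34 Mb (6 cytosines). Between 37 and 40 Mb they differed by 29.3 points.

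**Figure D5:**
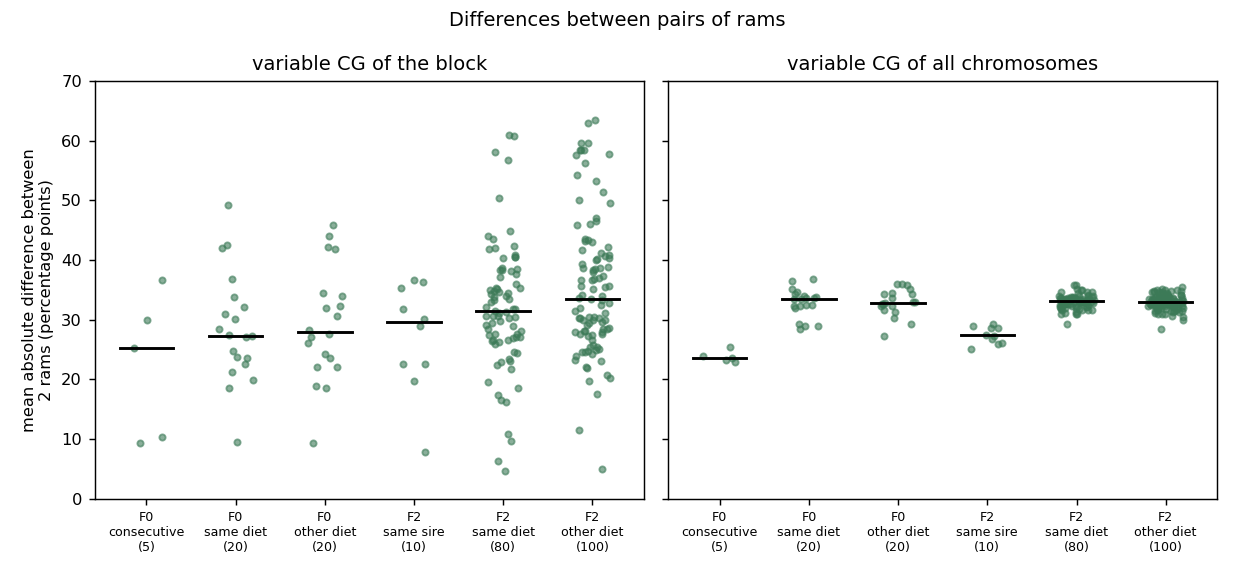
Mean absolute difference between 2 rams (percentage points, vertical axis) over the variable CG cytosines of the block (left) and of all chromosomes (right), for pairs of F0 rams with consecutive numbers, of the same or another diet, and of F2 rams with the same sire, of the same or another diet (number of pairs in brackets). Each point is a pair and each bar a median. Over all chromosomes brothers lie at the low end (25.1 to 29.3 points), while in the block they run from 7.89 to 36.7, inside the 4.56 to 63.4 points of the other F2 pairs.

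Sire families were tested in F2, on a contrast that the choice of the block did not use. The moderated F test of limma for differences between the 5 families within each diet, over all F2 CG cytosines, called 0 of the 208 cytosines of the block that could be tested at an adjusted p of 0.05, beside 0.905% of all 122238 tested. Of the 208, 37 had an unadjusted p under 0.05 (17.8%, compared with 18.2% of all tested). The smallest adjusted p was 0.069, at 16154707 on the plus strand and at 17609700 on the minus strand. At 16154707 family means lay between 44.5% (sire 11) and 95.9% (sire 10) and brothers differed by a median of 8.23 points. At 17609700 sires 11 and 24 had family means of 54.3% and 53.6%, the other families lay between 22.5% and 35.9%, and brothers differed by a median of 4.91 points. The next, 16932883 on the minus strand, was also an F2 DMC (35.5 points higher in the treatment group, adjusted p of the family test 0.112). Its families of sires 11 and 23 had means of 85.2% and 79.2% and all others of 22.2% or less, and brothers differed by a median of 13.1 and by up to 42.9 points. Leaving out a family gave between 0 and 3 calls, with 3 when sire 3 was left out and 1 each without sires 5, 10 and 12. Over the cytosines of the block a median of 45.7% of the variation among the 20 rams lay between brothers, 46% between families of a diet and 3.10% between diets. These are raw shares of the sums of squares, with no allowance for the numbers of diets, families and rams. Rams without any family structure would also give large shares between families and between brothers. The shares therefore do not measure family structure.

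Sire and descendants were compared by Pearson's r over the 10 families after removing the diet means. At the 64 CG cytosines of the block with an F0 SD of at least 20 points that were listed in F1, the median r of sire and pool was 0.60, and 60 of the 64 were above 0. Over all 26782 such cytosines it was 0.67. Between sire and the mean of its grandsons the median r was 0.25 at the 27 such cytosines of the block and 0.31 at the 9293 over all chromosomes. These values are descriptions over cytosines that share the same families.

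Few genes around the block could be tested in sperm RNA, and none of those tested was called by diet. No gene table of Oar_rambouillet_v1.0 was used for the RNA, so the genes are those that stand between RGS18 and KCTD3 around BRINP3 in the RefSeq gene table of ARS-UI_Ramb_v3.0. Of the 23 entries of that stretch 8 were matched in the counts by a symbol held by 1 locus and 3 passed the filter (15 or more counts in over 10 rams). BRINP3 had 0 to 68 counts per ram. Its level was 7.34 CPM at the median of the treatment group (0 to 16.6) and 7.70 CPM at that of the control group (1.20 to 17.1), a log2 fold change of 0.02 ± 0.47 (SE, edgeR quasi-likelihood test, adjusted p 0.9998). LOC106990525, a long noncoding RNA listed next to BRINP3, had medians of 6.01 CPM (0.417 to 12.2) and 7.01 CPM (1.20 to 15.7), with a log2 fold change of -0.40 ± 0.43. KCTD3, which codes for a protein with a BTB domain, had medians of 10.8 CPM (5.18 to 19.99) and 9.17 CPM (5.62 to 34.1) and a log2 fold change of -0.10 ± 0.37. The groups overlapped throughout for all 3. RGS18, a regulator of G-protein signalling in blood cells, had 2 to 53 counts per ram and missed the filter, as did LOC114117289 with 0 to 3 counts.

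None of the 13577 genes tested was called by edgeR (0%), and 104 had an unadjusted p under 0.05. DESeq2 called 0 genes too, with 174 at an unadjusted p under 0.05. Libraries held 0.806 to 13.1 M counts. All 12 spermatid and sperm markers were detected in every ram, with a summed level of 288 to 5961 CPM in the treatment group and 186 to 7334 CPM in the control group. Markers of leukocytes (11 of 12 in the counts, all detected in every ram) summed to 164 to 27401 and 96.4 to 56546 CPM, and those of squamous epithelium (9 of 12) to 121 to 17312 and 109 to 28439 CPM. No member of these lists was called, and their part in the levels of BRINP3, LOC106990525 and KCTD3 was not tested. In a mixture of cells, fewer cells of a type and less RNA per cell cannot be told apart.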

How the data were processed

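For each generation and context the authors deposited, for every cytosine, the counts of reads covering it and of methylated reads per sample. These counts were not normalized. Per the study's methods and labels, reads were trimmed with Trim Galore, aligned with Bismark to Oar_rambouillet_v1.0 and deduplicated. The 120 columns of unmethylated reads were not used. Every listed CG cytosine had at least 10 reads in each sample, so that 1 read moves a level by up to 10 points. Levels are methylated reads over reads. The members and all lists were chosen with earlier results of these data known.

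DMCs were called over all listed cytosines of a context with the likelihood-ratio test of a logistic model on reads summed per group (SciPy 1.17.1), with Benjamini-Hochberg adjustment. This test takes reads as the unit and does not include the spread between rams. Tested on simulated data for F0 CG with rams of a group alike, it found 197 of the 200 cytosines that had been moved 40 points (50000 simulated) and called 0 others. Sire families were tested with limma 3.58.1 on F2 levels. On simulated data it recovered 154 of 200 cytosines whose family means had an SD of 30 points, with 17 false calls. The simulated spread between brothers was capped below that seen at the variable cytosines of the block. The share recovered therefore does not hold for those. RNA counts, deposited as raw gene counts made after trimming with Trimmomatic and alignment with STAR, were tested with edgeR 4.0.16 after TMM, and with DESeq2 1.42.0 as an alternative. In simulated counts for 13577 genes, edgeR found 121 of the 200 that had been changed 4-fold and called 3 others. Strand use in counting was not given in the sources used here.

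Cytosines are named that were called in all generations, the 6 called in opposite directions in F0 and F2 with the largest smaller difference, the 3 largest differences per generation, the 3 with the smallest adjusted p of the family test, and the listed ones next to the ends. SDs are over rams or pools. In F2 the SDs over 10 rams, the diet fit of limma and the RNA fit take the 2 brothers of a family as separate samples, so that their spread may understate that between families. The labels give F0 and F1 groups no shared replicate numbers across diets. The alternatives were a difference of 25 points, at least 15 reads, equal weights, limma, leaving out each sire, pool or family, and other tests and filters for RNA.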

Additional observations from a re-analysis of the deposited data

Results flagged for a closer look

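Among 100 groups of 4 to 10 samples examined for a sample far from its group, 8 held one by Dixon's criterion at 95% confidence, a criterion that chance also meets at times. Treated ram 9 accounted for 3 in F0 and its pool for 1 in F1. The ram was at 72.7% at 18339109, with the nearest treated ram at 36.8%, and at 80% at 18339124, with the nearest at 41.4%. Its oriented mean over the 7 cytosines called in F0 and F2 was 25.2%, against 45.9% for the nearest, and that of its pool 30.6%, against 49.3%. F2 treatment ram ramF2_359.5T was at 33.3% at 17498647 and at 33.3% at 18339109, where the nearest of its group were at 13.04% and 16%. Treated F0 ram 11 was at 57.9% at 18984040, with the nearest at 90.9%. KCTD3 stood at 34.1 CPM in F2 control ram ramF2_485.6C, with the nearest at 15.8 CPM. What sets these samples apart was not tested.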

How the results depend on the processing

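With a difference of at least 25 points the CG DMCs of the block numbered 11 in F1 and 14 in F2, the CHG DMCs of F1 numbered 0, and 2 cytosines were called in opposite directions in F0 and F2. With at least 15 reads in every sample, which lists fewer cytosines, the CG DMCs numbered 15 in F0 and 4 in F2, the CHH DMCs 0 in F0 and 0 in F2, and the cytosines called in opposite directions 2. limma on sample levels called 0 CG cytosines in each generation, and with consecutive F0 ram numbers, which the labels do not name as twins, as a replicate block it called 0 in F0. Without F2 rams ramF2_453.4C and ramF2_475.10C, chosen after seeing the data, 13 CG cytosines were DMCs in F2 and 1 was called in opposite directions. Leaving out 1 ram, pool or family at a time gave 17 to 42 CG, 0 to 4 CHH and 0 to 1 CHG DMCs in F0, 9 to 23, 0 to 3 and 0 to 2 in F1, and 16 to 34, 6 to 12 and 1 to 3 in F2. It gave 1 to 8 cytosines called in opposite directions and 0 to 3 calls of the family test. The lowest CG counts came without ram 4 in F0, the pool of sire 9 in F1 and the grandsons of sire 4 in F2. The remaining alternatives kept their counts within 1.5 times the reported ones, so that 106 values were close and 46 moved. Calls for RNA were 0 throughout. The cause of the moved counts was not tested.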
